A study of Mus musculus with 16 samples.

Results

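The central genes of the mouse HoxB cluster, Hoxb5, Hoxb6, Hoxb7, Hoxb8 and Hoxb9, were followed through 16 lines of immortalised mouse embryonic fibroblasts (MEFs), the cells that grow out when a dissociated embryo is placed in culture. They are 5 of the 54453 genes with values and 5 of the 39 Hox genes among them. They were chosen by their symbols because measured values among the MEF-1 clonal lines showed them high in some lines and low in others, so that spread is described here and not tested.

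All lines came from C57BL/6J mice, with no transgene or treatment named. MEF-1 and MEF-2 are parental lines from a pair of littermate E13.5 embryos, each immortalised by serial passage until cells outgrew the crisis at which primary fibroblasts stop dividing. From each parental line 7 single cells were sorted and expanded into clonal lines, and 1 library of total RNA depleted of ribosomal RNA was sequenced per line. Each set of 7 clonal lines therefore traces back to 1 embryo and 1 immortalised culture, and p-values between the sets measure the spread between subclones. Embryo, sex and immortalisation event cannot be told apart in this comparison, because transcripts of Y-linked Ddx3y stood between 10.46 and 12.37 in MEF-1 clones and no higher than 5.68 in MEF-2 clones. The values are regularised log (rlog) values, which are log2 counts corrected for library size and pulled towards the average of each gene, so that differences of low genes are understated and levels of different genes are not compared. The depth of the libraries is not known from these values.

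Hox genes encode transcription factors that bind DNA through a homeodomain and give cells along the head-to-tail axis of the embryo their positional identity. They lie in 4 clusters, HoxA to HoxD, and their order along the chromosome follows the order in which they are switched on in time and along the axis, from group 1 at the 3′ end to group 13 at the 5′ end. Fibroblasts in culture keep part of the Hox pattern of the body site they came from, held on by Trithorax-type and off by Polycomb-type chromatin complexes. The central HoxB genes act in the axial skeleton, spinal cord, gut and blood: Hoxb5 in enteric and vascular progenitors, Hoxb6 and Hoxb7 in trunk mesoderm, Hoxb8 in spinal cord and myeloid progenitors, and Hoxb9 in the thoracic skeleton.

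The members lie head to tail on the plus strand of chromosome 11 in the GRCm38 (mm10) build. Hoxb9 (ENSMUSG00000020875) spans chr11:96271457-96276595, Hoxb8 (ENSMUSG00000056648) chr11:96281905-96285315 and Hoxb7 (ENSMUSG00000038721) chr11:96286623-96290162. Hoxb6 (ENSMUSG00000000690) spans chr11:96292476-96301569 and Hoxb5 (ENSMUSG00000038700) chr11:96303336-96306121. From the start of Hoxb9 to the end of Hoxb5 is 34665 bp, and a further 12145 bp separate Hoxb5 from Hoxb4, the next Hox gene towards the 3′ end.

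The homeobox, the exonic coding stretch of 180 bases that encodes the homeodomain, is shown for Hoxb9, Hoxb8, Hoxb7 and Hoxb6, because it is the part in which the genes are most alike and in which short reads could be shared between them. The sequences were read from the GENCODE M21 transcripts of GRCm38, and capitals mark the codons at the core of the recognition helix, which contacts DNA.
Hoxb9: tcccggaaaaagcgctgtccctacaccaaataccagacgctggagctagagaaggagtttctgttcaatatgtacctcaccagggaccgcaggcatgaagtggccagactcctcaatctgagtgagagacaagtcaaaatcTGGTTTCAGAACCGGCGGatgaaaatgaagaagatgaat
Hoxb8: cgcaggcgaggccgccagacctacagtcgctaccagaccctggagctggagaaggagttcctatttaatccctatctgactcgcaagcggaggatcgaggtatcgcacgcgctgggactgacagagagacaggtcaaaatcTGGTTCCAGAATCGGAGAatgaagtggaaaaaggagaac
Hoxb7: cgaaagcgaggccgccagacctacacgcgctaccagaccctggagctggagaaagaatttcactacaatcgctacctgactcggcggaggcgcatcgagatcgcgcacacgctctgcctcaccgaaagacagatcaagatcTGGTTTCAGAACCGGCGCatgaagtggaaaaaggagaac
Hoxb6: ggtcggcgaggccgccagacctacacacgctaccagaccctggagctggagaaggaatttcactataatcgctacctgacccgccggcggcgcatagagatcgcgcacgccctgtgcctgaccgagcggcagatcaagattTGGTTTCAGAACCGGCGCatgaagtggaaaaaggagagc

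Hoxb6 and Hoxb7 were the closest pair, identical at 160 of 180 homeobox bases (88.9%), with a longest identical run of 37 bases. Hoxb9 stood farthest from the rest, at 61.7% to 64.4% identity with the other genes shown. The rest of the transcripts was not compared, and how reads that match several members were divided by the quantification was not tested. Hoxb8 was at 80.6% identity with both Hoxb6 and Hoxb7.

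Of the members, Hoxb8 has an entry among the RefSeq promoters (250 bases before to 50 bases after the start, GRCm38.p6), and it is shown with that of Hoxb4 because Hoxb4 is the Hox gene nearest to the members whose values stayed together in the MEF-1 clonal lines. Hoxb8 lies at chr11:96281655-96281954 and Hoxb4 at chr11:96318017-96318316, both on the plus strand, and capitals mark matches to TTTATNG, the core bound by the caudal-type factors of the Cdx family.
Hoxb8 promoter: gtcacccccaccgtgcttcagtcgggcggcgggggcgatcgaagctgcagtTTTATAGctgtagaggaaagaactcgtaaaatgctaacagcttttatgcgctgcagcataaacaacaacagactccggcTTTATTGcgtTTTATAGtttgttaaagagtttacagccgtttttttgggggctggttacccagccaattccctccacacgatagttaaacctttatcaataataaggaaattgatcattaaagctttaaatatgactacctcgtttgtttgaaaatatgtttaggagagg
Hoxb4 promoter: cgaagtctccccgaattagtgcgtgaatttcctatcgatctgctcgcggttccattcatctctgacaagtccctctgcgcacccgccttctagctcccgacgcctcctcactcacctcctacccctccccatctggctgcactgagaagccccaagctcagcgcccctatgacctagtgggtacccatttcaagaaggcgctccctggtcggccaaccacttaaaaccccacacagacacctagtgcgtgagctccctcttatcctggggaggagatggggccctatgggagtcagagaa

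The Hoxb8 window held 3 matches to TTTATNG and the Hoxb4 window 0, with both strands searched, against 10.9% of 32851 promoters that held at least 1. Hoxb8 also held 2 matches to TATAAA (13.6% of promoters), both inside TTTATNG matches and on the other strand, and 1 match to CCAAT (37.4%), while Hoxb4 held neither. TGATTNAT, bound by Hox and Pbx proteins together, and the homeodomain core TAATTA had 0 matches in both windows and were in 3.2% and 5.3% of promoters. The GC content was 42.3% with 13 CpG in the Hoxb8 window and 58% with 14 CpG in the Hoxb4 window, beside promoter medians of 52.7% and 7 CpG. Cdx1, Cdx2 and Cdx4 themselves were listed at 0 in all 16 lines.

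Among the MEF-1 clonal lines, all 5 members were highest in lines 1, 4 and 5, and lowest in lines 6 and 7. Hoxb9 stood at 12.49, 12.14 and 12.87 in lines 1, 4 and 5, at 6.11 in both line 2 and line 3, and at 4.34 and 4.72 in lines 6 and 7. Hoxb8 stood at 10.79, 9.95 and 10.61 in lines 1, 4 and 5, at 6.23 and 4.44 in lines 2 and 3, and at 3.61 and 3.45 in lines 6 and 7. Both genes left a wide gap between lines 1, 4 and 5 and the other 4 lines.

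Hoxb7 read 9.04, 8.32 and 8.91 in lines 1, 4 and 5, 5.82 and 3.50 in lines 2 and 3, and 2.53 and 3.20 in lines 6 and 7. Hoxb6 read 9.12, 8.88 and 9.02 in lines 1, 4 and 5, 6.17 and 5.17 in lines 2 and 3, and 3.65 and 4.49 in lines 6 and 7. Hoxb5 read 7.83, 7.70 and 7.56 in lines 1, 4 and 5, 4.54 and 3.87 in lines 2 and 3, and 3.10 and 2.76 in lines 6 and 7. Line 2 was above line 3 in 4 members, and the pair was level in Hoxb9. Each pair of members followed the same order closely, with Pearson r between 0.965 and 0.994 over the 7 lines. All genes of a line share its library and scaling.

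**Figure D1:**
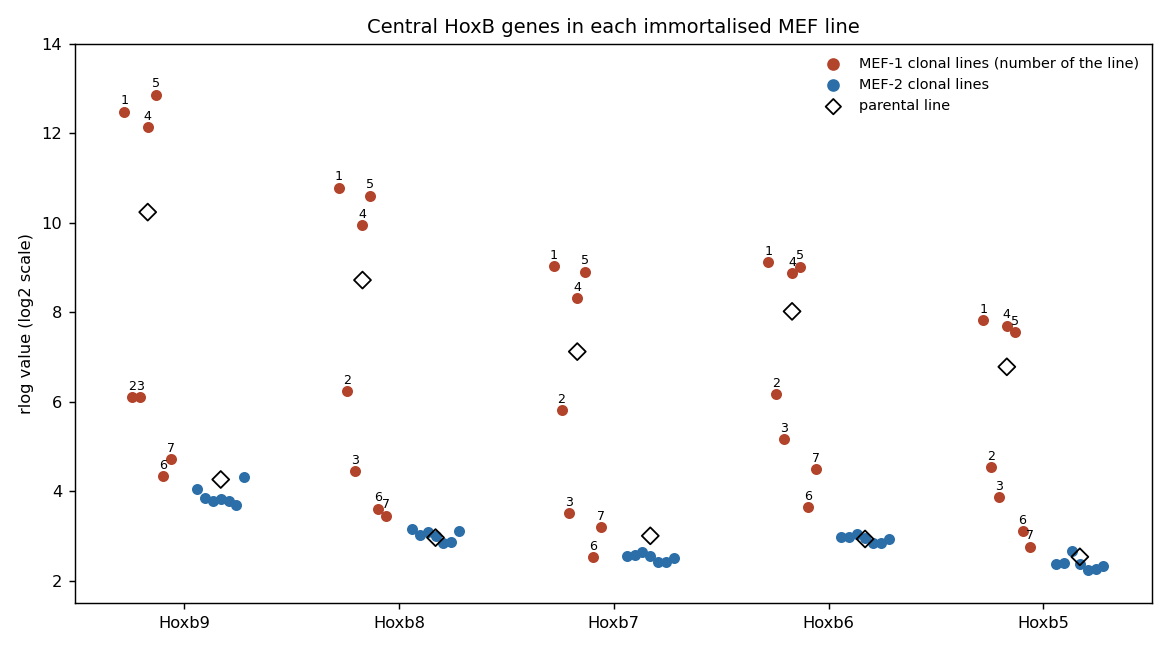
rlog values (log2 scale, vertical axis) of Hoxb9 to Hoxb5 (horizontal axis) in every line, with the 7 MEF-1 clonal lines in red and numbered, the 7 MEF-2 clonal lines in blue and each parental line as an open diamond. MEF-1 lines 1, 4 and 5 lie above the MEF-1 parental line in every gene, and the MEF-2 clonal lines lie between 2.24 and 4.31.

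The MEF-1 parental line lay inside the span of its clonal lines for every member: 10.24 for Hoxb9, 8.72 for Hoxb8, 7.12 for Hoxb7, 8.02 for Hoxb6 and 6.78 for Hoxb5. For each of them 3 of the 7 clonal lines were above the parental value and 4 below it. The ranges of the members among the MEF-1 clonal lines, highest minus lowest value on the log2 scale, were 8.53 for Hoxb9, 7.34 for Hoxb8, 6.51 for Hoxb7, 5.47 for Hoxb6 and 5.08 for Hoxb5. They ranked 2, 6, 12, 29 and 41 among 15285 protein-coding genes with an average above 0, whose median range was 0.56. The range thus fell from the 5′ gene to the 3′ gene without exception, although the pull towards the average is stronger in genes with fewer reads and its part in this order was not tested.

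The same lines differed in the RNA of a whole chromosome. The median deviation of 416 tested chromosome 18 genes from the mean of the MEF-1 clonal lines was -0.32, -0.35 and -0.31 in lines 1, 4 and 5, and 0.19, 0.23, 0.27 and 0.27 in lines 2, 3, 6 and 7. The MEF-1 parental line read -0.02, between these values, and the MEF-2 parental line 0.25. Chromosome 18 had the widest range of any autosome among the MEF-1 clonal lines (0.62), and its r with the members' mean was -0.983 over 7 lines, while the other 18 autosomes had ranges of 0.04 to 0.31 and r of -0.608 to 0.719. Chromosome 11, which carries the members, had a range of 0.12. The study left chromosome 18, with chromosomes 12 and 19, out of its DNA methylation comparisons because of altered copy number in its lines. The lines with high members and the lines with less chromosome 18 RNA were therefore the same 3, and what part this has in the members' spread was not tested.

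In the MEF-2 lines the same genes were low and close together. The 7 clonal lines spanned 3.69 to 4.31 for Hoxb9 (median 3.82), 2.85 to 3.16 for Hoxb8 (median 3.02) and 2.41 to 2.63 for Hoxb7 (median 2.54). Hoxb6 spanned 2.84 to 3.03 (median 2.95) and Hoxb5 2.24 to 2.65 (median 2.36). The MEF-2 parental line read 4.26, 2.96, 3.00, 2.93 and 2.53 from Hoxb9 to Hoxb5, so no MEF-2 line came near MEF-1 lines 1, 4 and 5. The ranges of 0.19 to 0.62 lay on both sides of the median of 0.46 over all tested genes.

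For most members the MEF-2 values lay at the level of lines without reads. In an rlog table lines with 0 reads for a gene fall on a common line set by the scaling of each library, and lines within 0.02 of it, where at least 6 lines lay on it, were read as having none, by a procedure added after the values were seen. For Hoxb6 all 8 MEF-2 lines were at that level and all 7 MEF-1 clonal lines above it, by 0.71 in line 6 and 1.51 in line 7. For Hoxb7 the 7 MEF-2 clonal lines and MEF-1 line 6 were at it, with the MEF-2 parental line 0.48 above. These are the members for which the MEF-2 clonal lines showed no reads at all.

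A trace was left in the other members. For Hoxb8, 6 MEF-2 lines were at the level without reads and MEF-2 clonal lines 1 and 7 were each 0.16 above it, while MEF-1 lines 6 and 7 were 0.64 and 0.44 above. For Hoxb5, 6 MEF-2 clonal lines were at it, MEF-2 clonal line 3 was 0.20 and the parental line 0.19 above, and MEF-1 lines 6 and 7 were 0.75 and 0.37 above. For Hoxb9 fewer than 6 lines shared such a level. Y-linked Ddx3y gave the level of 8 lines, which were the 8 MEF-2 lines. MEF-1 lines 6 and 7, the lowest of their set, thus stood above the level without reads for Hoxb8, Hoxb6 and Hoxb5, and line 6 not for Hoxb7.

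Between the embryos, the members were higher on average in the MEF-1 than in the MEF-2 clonal lines. Because the MEF-1 values of this comparison chose the members, the differences are given as a description, with no p-value. The difference (MEF-1 minus MEF-2 mean, log2 scale) was 4.50 for Hoxb9 (SE 1.33), 4.00 for Hoxb8 (SE 1.14) and 3.38 for Hoxb7 (SE 0.979). It was 3.71 for Hoxb6 (SE 0.801) and 2.96 for Hoxb5 (SE 0.782). In limma, a linear model across all tested genes with Benjamini-Hochberg adjustment, all 5 members were among the genes called higher in MEF-1 at an adjusted p below 0.05, which held 28.6% of the 15285 genes tested, beside 27.5% called lower and 56.1% called in either direction. With the choice of the members resting on one side of it, nothing is read from this count. The median difference was 3.71 over the members and 0.0043 over all tested genes.

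Every MEF-1 clonal line was above every MEF-2 clonal line for 4 of the 5 members, beside 13.6% of all tested genes. Since MEF-1 values chose the members, nothing is read from this count either. Hoxb7 was the exception, since MEF-1 line 6 (2.53) lay among the MEF-2 clonal lines. Between the parental lines, with 1 library each and no test, MEF-1 was above MEF-2 by 5.99 for Hoxb9, 5.76 for Hoxb8, 4.12 for Hoxb7, 5.09 for Hoxb6 and 4.25 for Hoxb5.

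Along the cluster, the spread between MEF-1 clonal lines began 5′ of Hoxb9 and ended between Hoxb5 and Hoxb4. Gm53 (ENSMUSG00000078706), a long non-coding RNA gene that ends 6588 bp before Hoxb9 on the same strand, read 10.31, 9.74 and 10.14 in MEF-1 lines 1, 4 and 5. It read 3.13, 2.58, 2.48 and 2.72 in lines 2, 3, 6 and 7, and 7.38 in the parental line. Gm53 had the same 3 high lines as the members, but its line 2 was close to line 3, whereas Hoxb8 and Hoxb7 in line 2 were well above line 3. Lines 3 and 6 were at the level without reads for Gm53, as were 6 MEF-2 clonal lines. In a fit over all gene types its difference between the embryos was 3.26 (SE 1.33, limma adjusted p = 0.0553).

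On the 3′ side, Hoxb4, a regulator of blood stem cell expansion, read 8.62 to 9.08 in the 7 MEF-1 clonal lines, with a median of 8.95. Lines 6 and 7, lowest in the members, had Hoxb4 at 8.95 and 9.08, and lines 1, 4 and 5 at 8.96, 8.62 and 8.70. The MEF-1 range of Hoxb4 was 0.46, against 5.08 for its neighbour Hoxb5. Hoxb3 and Hoxb2, which pattern the hindbrain, spanned 10.00 to 10.38 and 9.26 to 9.66 in the same lines. None of the 3 genes separated MEF-1 lines 1, 4 and 5 from the rest. RNA of Hoxb4, Hoxb3 and Hoxb2 was present in every MEF-1 clonal line, including lines 6 and 7 with little RNA of the members.

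The same boundary was not seen in MEF-2, where the members were low throughout. Hoxb4 read 4.49 to 6.13 in the MEF-2 clonal lines (median 4.84) and 7.09 in the MEF-2 parental line, above all of them. Hoxb3 read 8.08 to 8.69 and Hoxb2 7.95 to 8.28. Hoxb4 was higher in MEF-1 by 3.88 (SE 0.207, limma adjusted p = 1.59e-09). Hoxb3 was higher by 1.68 (SE 0.106, limma adjusted p = 8.65e-09) and Hoxb2 by 1.32 (SE 0.0828, adjusted p = 8.46e-09). Hoxb13, also tested, was higher by 0.37 (SE 0.120). Its average was 0.05 and every MEF-2 clonal line was at its level without reads, so it passed the filter mainly through MEF-1. Nothing is read from its call. For Hoxb4, Hoxb3 and Hoxb2 the standard errors were small because the lines of each embryo lay together, unlike the members. Hoxb13 lay between -0.12 and 0.78 in all lines, with 9 lines at the level without reads, and Hoxb1 between -1.30 and -1.02 with 11 lines at it. Near that level, Hoxb13 was highest in MEF-1 lines 1, 4 and 5 (0.78, 0.55 and 0.36). It was at most 0.07 in lines 2, 3, 6 and 7 (r = 0.905 with the members' mean).

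**Figure D2:**
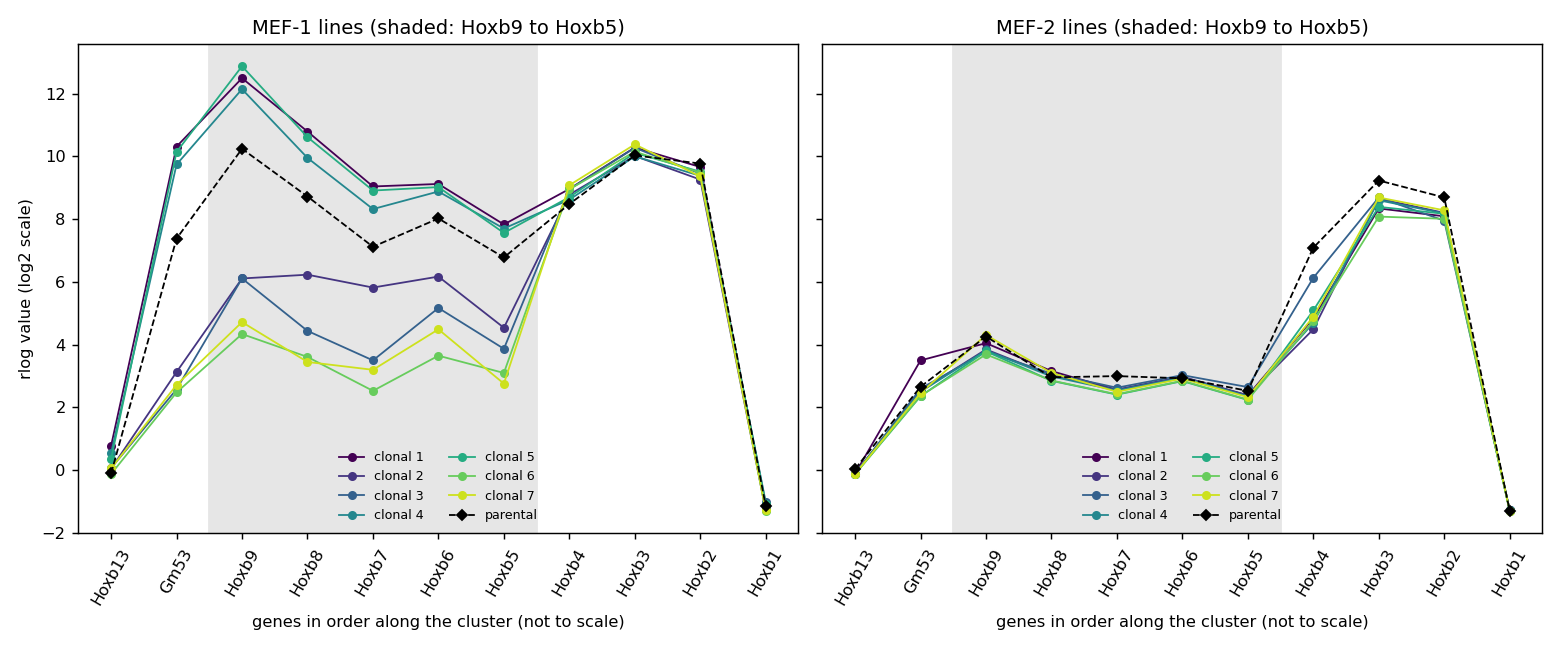
rlog values (log2 scale, vertical axis) of the HoxB genes and Gm53 in chromosomal order from 5′ to 3′ (horizontal axis, not to scale), with 1 line per clonal line, the parental line dashed and Hoxb9 to Hoxb5 shaded. In MEF-1 the lines part from Gm53 to Hoxb5 and meet again at Hoxb4 (8.62 to 9.08), and in MEF-2 they stay together and low across the shaded genes.

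The annotation also places non-coding genes inside the cluster. Hoxb5os, on the minus strand across Hoxb6 and Hoxb5, read -1.77 to -1.62 with 13 lines at the level without reads. The kit marks strand but the strand setting of the quantification is not given in the sources used here, so reads of a gene and its antisense partner may not have been kept apart. Hoxb3os, antisense to Hoxb3 and Hoxb2, stood at 6.77 to 7.76 in MEF-1 clones against 6.00 to 6.43 in MEF-2 clones. It was lowest in MEF-1 lines 1, 4 and 5 (6.87, 6.77 and 6.85) and highest in lines 6 and 7 (7.64 and 7.76), the reverse of the members' order (r = -0.942 over 7 lines). Mir196a-1 and Mir10a, the microRNA genes between Gm53 and Hoxb9 and between Hoxb5 and Hoxb4, were listed at 0 in all lines.

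Outside the cluster, 864 of the 15285 protein-coding genes tested had a MEF-1 range of 2 or more. The count of such genes among the neighbours is given beside this share, and nothing is read from it. Of 18 annotated protein-coding genes within 500 kb on either side, 17 had values and 14 an average above 0, and 1 of these 14 had a MEF-1 range of 2 or more. This was B4galnt2, a glycosyltransferase gene that ends 279424 bp before Hoxb13. Its values lay between 3.84 and 8.73 in MEF-1 clones (median 6.07) and between 2.89 and 3.81 in MEF-2 clones, with the parental lines at 7.25 and 3.39. Its r with the mean of the members was 0.96 over the 7 MEF-1 clonal lines. Its difference between the embryos was 2.98 (SE 0.688), a description since its MEF-1 range singled it out. The other 13 genes had MEF-1 ranges of 0.16 to 1.82, and the 14 had a median of 0.37. Phospho1, a phosphatase gene of mineralising tissue, and Abi3 also separated lines 1, 4 and 5 from the rest, over narrower ranges. Phospho1 read 8.71 to 8.90 in those lines and 7.80 to 8.30 in the other 4 (r = 0.905), and Abi3 4.23 to 4.87 and 3.05 to 3.72 (r = 0.80). Between the embryos 6 of the 14 were called higher in MEF-1 and 3 lower, beside 28.6% and 27.5% of all tested genes. The median difference of the 14 was -0.02, so their calls went both ways.

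Over the neighbours with an average above 0 other than B4galnt2, r with the members' mean ran from -0.658 (Igf2bp1) to 0.905 (Phospho1). Igf2bp1, an RNA-binding protein gene of the embryo on the 5′ side, read 11.82 to 12.17 in the MEF-1 clonal lines, and Snf8, a gene of the endosomal sorting machinery, 11.25 to 11.55. Skap1, an adaptor gene that follows the cluster on the 3′ side, read 3.66 to 4.70, a range of 1.05 in another order of lines (r = -0.088). The median deviation over 1225 other chromosome 11 genes stayed between -0.019 and 0.043 in 15 lines and was -0.112 in MEF-1 line 6. Taking that median away left the MEF-1 ranges of the members at 8.38, 7.35, 6.40, 5.36 and 5.08 from Hoxb9 to Hoxb5.

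**Figure D3:**
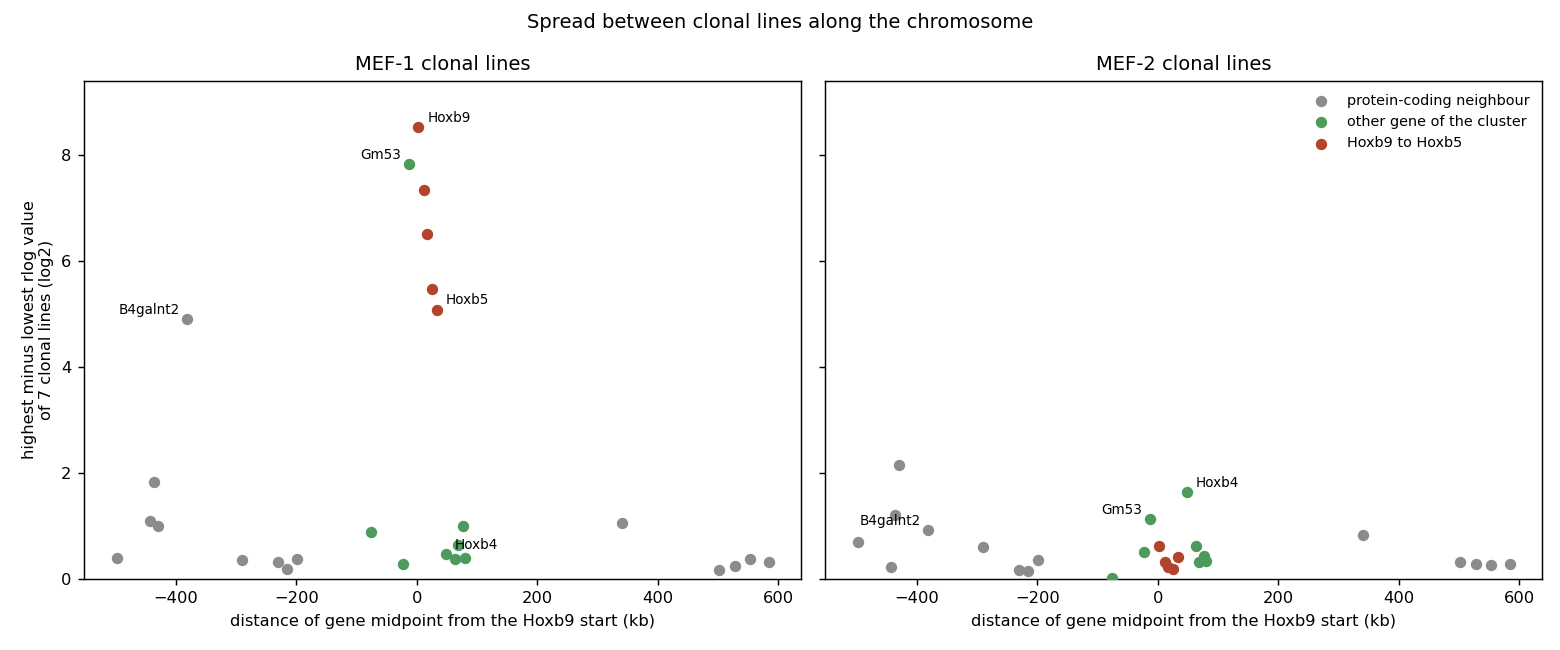
Highest minus lowest rlog value of the 7 clonal lines (log2, vertical axis) against the distance of each gene's midpoint from the start of Hoxb9 in kb (horizontal axis), for MEF-1 on the left and MEF-2 on the right. In MEF-1 the members (red), Gm53 and B4galnt2 stand above 4, while Hoxb4 lies at 0.46, and in MEF-2 the members lie at 0.62 or below.

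Among the other Hox clusters, HoxA was the one with several genes tested, and it split by position. All 11 HoxA genes were tested, of which 2 were called higher in MEF-1, 3 lower and 6 neither, with a median difference of -0.06. Over all tested genes the shares were 28.6% higher and 27.5% lower. Hoxa9 and Hoxa10, which pattern the proximal limb and the lower trunk, were higher by 2.80 (SE 0.577, limma adjusted p = 0.00084) and 3.24 (SE 0.768, adjusted p = 0.00237). Hoxa5, a paralogue of Hoxb5 known from lung development, read 9.41 to 9.99 in MEF-1 against 10.34 to 10.71 in MEF-2 and was lower by 0.73 (SE 0.0945, limma adjusted p = 1.43e-05). Hoxa7 (10.06 to 10.69 against 10.57 to 11.03) and Hoxa4 were lower as well, and Hoxa6 (7.07 to 7.86 against 7.23 to 8.01) was not called, at an adjusted p of 0.0914 (0.00874 after quantile normalization, on the lower side).

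The 5′ HoxA genes varied between MEF-1 clonal lines in an order that resembled the members' but was not the same. Hoxa9 was highest in line 4 (8.66), followed by lines 5 (6.85) and 1 (6.38), and lowest in line 6 (4.06). Hoxa10, Hoxa11 and Hoxa13 likewise had line 4 highest, at 9.79, 8.45 and 8.76. Among the members, in contrast, line 4 was never the highest line. Hoxa13, which patterns hand and foot, read 4.13 in line 5, 3.08 in line 1 and 1.09 to 1.37 in lines 2, 3, 6 and 7, so 1 line set most of its range. The r with the members' mean over the 7 lines was 0.963 for Hoxa10, 0.863 for Hoxa9, 0.858 for Hoxa11 and 0.736 for Hoxa13. On the 3′ side of that cluster, Hoxa3 ran the other way (r = -0.992) over a narrow range, 10.27 to 10.39 in lines 1, 4 and 5 and 10.86 to 11.07 in the other 4 lines.

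HoxC and HoxD genes were low apart from Hoxd8 in the MEF-1 clonal lines. None of the 9 HoxC genes had an average above 0, and in the paralogues of the members Hoxc6 reached -0.23 in MEF-1 line 1, Hoxc5 and Hoxc9 stayed at or below -1.56, and Hoxc8 was listed at 0 in all lines. Of the 9 HoxD genes Hoxd8 was tested, at 2.11 to 4.59 in MEF-1 clones against 1.40 to 1.51 in MEF-2 clones, a difference of 1.67 (SE 0.289). It was above its level without reads in all 7 MEF-1 clonal lines, by 0.66 in line 6 to 3.19 in line 1, and in none of the MEF-2 lines. Hoxd8 thus passed the filter through MEF-1, and nothing is read from its call. Hoxd9 stayed at or below -2.26. In all, 7 of the 39 Hox genes were listed at exactly 0 in every line.

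**Figure D4:**
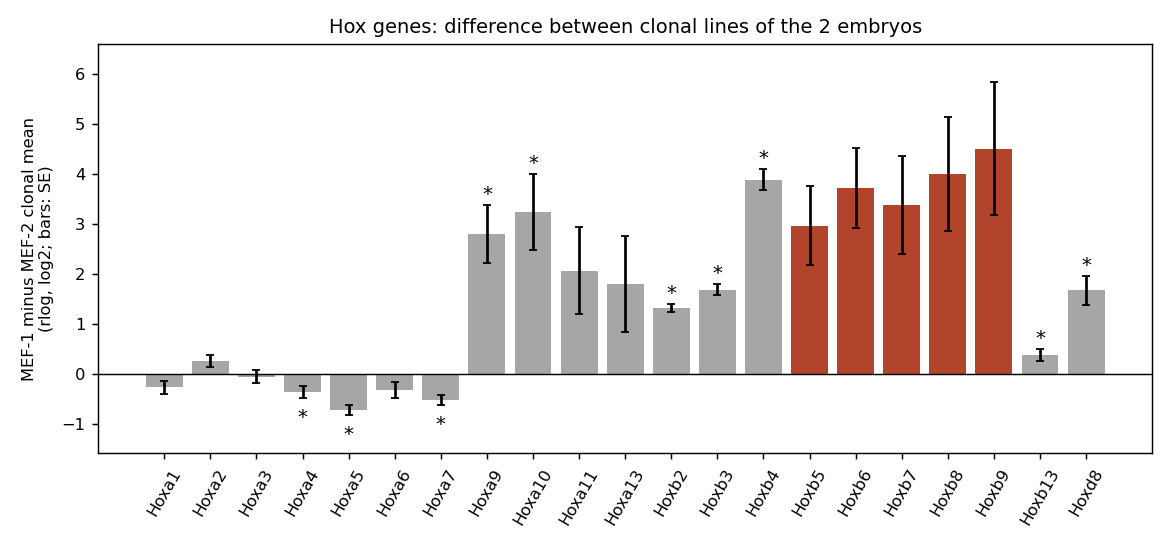
Difference of the mean rlog value between MEF-1 and MEF-2 clonal lines (log2, vertical axis; error bars, limma SE) for every Hox gene tested (horizontal axis), with the members in red and a star over genes other than the members with an adjusted p below 0.05. All HoxB genes shown are higher in MEF-1, while HoxA genes up to Hoxa7 lie between -0.73 and 0.25. Nothing is read from the stars of Hoxb13 and Hoxd8, which passed the filter mainly through MEF-1.

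TALE homeodomain proteins (Pbx, Meis and Pknox) bind DNA together with Hox proteins and sharpen their choice of sites. All 9 genes were tested, of which 1 was called higher and 4 lower in MEF-1, with a median difference of -0.11. The shares over all tested genes were 28.6% higher and 27.5% lower, and nothing is read from these counts. Pknox2 was higher by 2.29 (10.79 to 11.36 against 7.38 to 10.29, limma adjusted p = 5.84e-05). Among the lower genes, Pbx4 was lower by 0.37, Meis2 by 0.37 and Pknox1 by 0.16, the last of them not past the test after quantile normalization (limma adjusted p = 0.0636). Pbx2, Pbx3, Meis1 and Meis3 did not pass the test. Of these, Pbx3 came nearest to the members' order over the MEF-1 clonal lines (r = 0.803), between 10.63 and 12.03.

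Among the genes that control Hox expression, 28 of 33 were tested, with 6 called higher and 12 lower in MEF-1 and a median difference of -0.10. Over all tested genes 28.6% were called higher, 27.5% lower and 56.1% in either direction, so nothing is read from these counts. On the Polycomb side, Cbx7, a reader of the repressive mark, was higher by 3.07 (8.13 to 9.53 against 5.07 to 6.48, limma adjusted p = 1.7e-07), while Cbx6 was higher by 0.67. Cbx2, another reader, was lower by 0.99 (median 9.84 against 10.78, limma adjusted p = 1.1e-05). Ezh2, the methyltransferase of the same system, was lower by 0.97 (10.89 to 11.71 against 12.02 to 12.45, adjusted p = 7.65e-06), and its counterpart Ezh1 was higher by 0.73. Suz12, Rnf2 and Eed were lower by 0.42, 0.27 and 0.20. Bmi1, Pcgf2 and Ring1 did not pass the test.

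On the activating side, Men1 was higher by 0.28, and Ash2l, Rbbp5 and the demethylase gene Kdm6a were lower by 0.44, 0.21 and 0.38. Men1 lies on chromosome 19, whose tested genes had a median deviation from the MEF-1 clonal mean of -0.39 to -0.32 in the MEF-2 clonal lines. Kdm6a lies on the X chromosome, and the study found MEF-1 to be male and MEF-2 female. What part copy number or sex has in these differences was not tested. Kmt2a and Kmt2b, the methyltransferases that keep Hox genes on, had differences of 0.07 and 0.02 and did not pass the test. Ctcf, whose protein divides Hox clusters into domains, was lower by 0.27, and Gdf11, a signal that sets posterior Hox genes, by 0.26. Retinoic acid turns on 3′ Hox genes. Its receptor Rarg was higher by 0.26 in MEF-1, Cyp26b1, which breaks it down, was lower by 1.28, and Aldh1a3, which makes it, was lower too (median 3.96 against 4.57, limma adjusted p = 0.0244). None of these genes was part of what chose the members, and the widest range of the Polycomb and Trithorax genes named here among the MEF-1 clonal lines was the 1.40 of Cbx7.

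The genes most like the members were sought among 864 protein-coding genes outside the cluster with an average above 0 and a MEF-1 range of 2 or more, by Pearson r with the members' mean deviation over the 7 MEF-1 clonal lines. The highest included Sgsm1 (r = 0.988), Tmem51 (0.987), Eya2 (0.985) and Myh14 (0.978). Eya2, a co-activator and phosphatase of developing organs, read 7.44, 7.35 and 7.74 in lines 1, 4 and 5 and 4.21 to 5.38 in the other 4. Because values of the MEF-1 clonal lines chose these genes, their differences between the embryos are a description, with no p-value. The difference (MEF-1 minus MEF-2 mean) was 3.17 for Eya2 (SE 0.501) and 1.27 for Myh14 (SE 0.472). It was 1.19 for Tmem51 and -0.23 for Sgsm1. Sgsm1 read 6.19 to 8.62 in the MEF-2 clonal lines, where the members were low.

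The 5 lowest were Tmtc2 and Pcdhb21 (both r = -0.979), Ankrd1 (-0.958), Mfap3l (-0.952) and Lhfpl3 (-0.948). Tmtc2 read 5.37, 5.26 and 5.43 in lines 1, 4 and 5 and 7.04 to 7.82 in the other 4. Pcdhb21, a clustered protocadherin on chromosome 18, and Ankrd1, a gene that responds to mechanical tension, ran the same way at 7.98 to 8.28 against 9.76 to 10.30 and 6.63 to 7.30 against 7.80 to 8.94. Over all 864 genes, 16 had r of 0.95 or more and 4 had -0.95 or less. With 7 lines, and with all genes of a line sharing its library and scaling, such r values are a description of these lines. Fewer of the 10 names were found by other measures (3 by Spearman correlation).

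**Figure D5:**
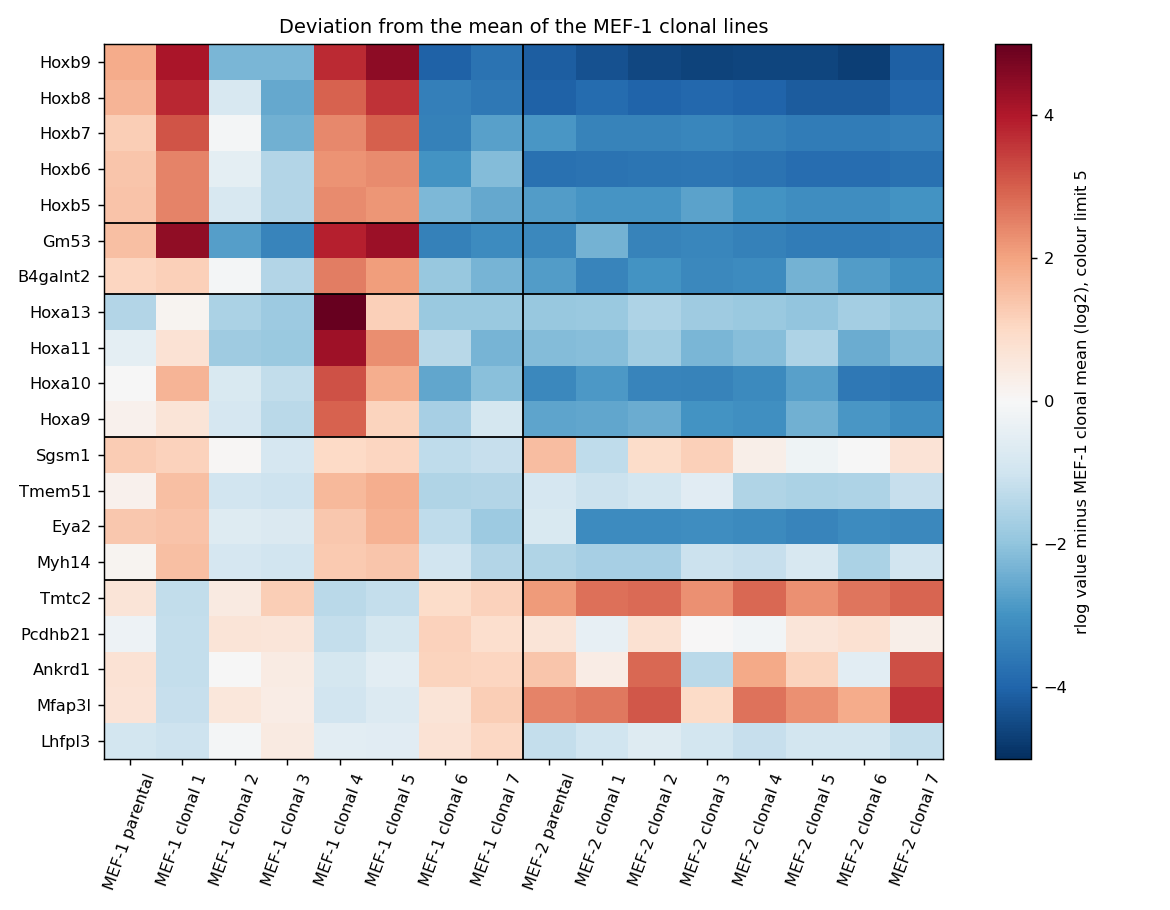
rlog value minus the mean of the 7 MEF-1 clonal lines (log2, colour, cut at 5) for the members, Gm53, B4galnt2, the 5′ HoxA genes 4 of the genes with the highest r and the 5 with the lowest (rows, in blocks) in all 16 lines (columns). The members, Gm53 and Eya2 are blue in all MEF-2 clonal lines, and Hoxa13 is dark red in MEF-1 line 4 (8.76).

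The lines carried many, but not all, of the listed markers of cultured mesenchyme. The mean of 11 fibroblast markers was 13.1 to 14.59 over the lines, with Col1a1 at 20.31 to 21.41 in the clonal lines. Of the 11, 7 averaged above the 80th percentile of protein-coding genes, and Thy1, Dcn, Lum and Fap did not. Thy1 was at 2.72 to 3.43 in the MEF-1 clonal lines. Dcn read 9.63 to 12.24 in MEF-1 clones and 5.77 to 7.24 in MEF-2 clones. Lum read 9.10 to 11.88 and 5.60 to 8.70, and Fap 3.85 to 5.89 and 2.51 to 3.76. The 3 chondrocyte markers were high too, with a list mean of 15.23 to 17.07 and Col2a1 at 17.28 to 19.28 in the clonal lines, 19.75 in the MEF-1 parental line and 18.88 in that of MEF-2. The endothelial, blood, epithelial and skeletal muscle lists had means of at most 3.52 in every line, and their markers were uneven. In the clonal lines Myod1 and Adgre1 were at or below -1.59 and Myf5 was listed at 0, whereas epithelial Cdh1 stood at 6.50 to 8.41, blood-type Csf1r at 4.56 to 8.33 and endothelial Tek at 3.78 to 6.57. The neural list reached 5.85, with Tubb3 at 9.48 to 12.96, Sox10 at or below -1.80 and Sox2 spanning 1.45 to 7.46 in the MEF-1 clonal lines. Csf1r and the fibroblast marker Pdgfrb lie on chromosome 18 and had r of -0.792 and -0.859 with the members. Over the MEF-1 clonal lines the list means had r between -0.877 (blood) and 0.733 (skeletal muscle) with the members' mean, and their part in the members' spread was not tested. Fewer cells that express a gene and less RNA per cell cannot be told apart in these bulk libraries.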

How the data were processed

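Total RNA of 16 lines was sequenced, 1 library per line, in 4 groups given by the labels: 1 parental and 7 clonal lines for each of MEF-1 and MEF-2. The authors trimmed reads with Trim Galore 0.6.0, quantified genes with Salmon 1.5.2 against mm10 (Ensembl release 102) and deposited log2 values from the regularised log transformation of DESeq2 1.24.0, without counts. Of 54453 genes, 54200 matched GENCODE M21, which gave symbols and positions. The depth per library and the strand setting are not given in the sources used here.

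limma 3.58.1 (R 4.3.3, eBayes with a trend) compared the 7 MEF-1 with the 7 MEF-2 clonal lines over 15285 protein-coding genes with an average above 0, two-sided, with Benjamini-Hochberg adjustment over all of them and a call at an adjusted p below 0.05. No pseudocount was needed. The parental lines were single values outside the fit. In a simulation of this comparison over 15285 genes, 200 of which carried a log2 shift of 1, the fit called 174 of those 200 and 10 others. The members and the gene lists were chosen with earlier results of these data known. The text names the members, every gene from Hoxb13 to Hoxb1, protein-coding neighbours within 500 kb, paralogues of the members, TALE and Hox regulator genes, and the 5 genes with the highest and the 5 with the lowest r. Hoxa3, Hoxa4, Hoxa10, Hoxa11, Hoxa13, Hoxd8 as a counted gene of HoxD and the marker genes with values were named after their values were seen. The level without reads and the medians per chromosome were added after the values were seen. Some genes and sequences that the rule covers are not reported here. Alternatives were other filters, gene types, scalings and variance priors, the clone number as a block, and each clonal line left out.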

Additional observations from a re-analysis of the deposited data

Results flagged for a closer look

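Among 68 sets of 7 clonal lines (34 named genes in each of MEF-1 and MEF-2), 5 had a line that stood apart, its gap to the nearest other line taking more than 0.568 of the range. For independent sets of normally distributed values, chance would give such a line in about 1 in 20 sets, or 3.4 of 68. The genes here share lines, some were chosen by their MEF-1 values and some sets lie at the level without reads. Nothing is therefore read from 5 against 3.4. Of the 10 sets of the members there was 1, Hoxb5 in MEF-2 clonal line 3 (2.65, next line 2.39), and this was 0.20 above the level without reads. The same line also stood apart in Hoxb4, the neighbouring gene (6.13, next line 5.09). Gm53 stood apart in MEF-2 clonal line 1 (3.50, next line 2.60), Hoxa7 in MEF-1 line 1 (10.69, next line 10.21) and Hoxa13 in MEF-1 line 4 (8.76, next line 4.13).

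Hoxb4 moved in opposite ways from parental to clonal lines. All 7 MEF-1 clonal lines were above the MEF-1 parental line, by 0.38 on average, and all 7 MEF-2 clonal lines were below the MEF-2 parental line, by an average difference of -2.10. This difference between the sets was not tested, since each parental line has 1 library. None of the members moved in this way, because their MEF-1 clonal lines lay on both sides of the parental line.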

How the results depend on the processing

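All 5 members were called higher in MEF-1 under each of 23 alternatives, with differences of 2.55 to 5.18 over the members, a description since their MEF-1 values chose them. This includes the replicate block by clone number, under which the differences were 2.96 to 4.50 as without it and 8226 genes were called instead of 8573. With the block, Hoxa4, Pbx4 and the neighbour Ube2z were no longer called (limma adjusted p = 0.0763, 0.0638 and 0.0997) and Hoxa11 was (0.0454), so HoxA had 3 genes higher and 2 lower. The clone numbers did not pair the lines: their correlations were -0.133 to 0.20 over 7 pairs and 1 of 7 lines was closest to its own number. Over all genes the alternatives called 7760 to 10297, the most with all gene types. HoxC went from 0 to 2 called genes with no filter on low values, since more HoxC genes entered the test, and HoxD from 1 to 0 with the average above the 40th percentile, which removed Hoxd8. The HoxB genes called outside the members went from 4 to 3 with the average above the 40th percentile and to 5 with no filter on low values. Among the HoxA, HoxB, HoxD, TALE, regulator and neighbour genes called in either direction, none reversed under the 3 other scalings. With lines left out in turn, the MEF-2 range was 0.152 to 0.413 for Hoxb5, lowest without line 3, and 0.359 to 0.619 for Hoxb9, lowest without line 7. Of the 10 genes most like or unlike the members, 3 were found again by Spearman correlation, 5 with a minimum range of 1, and 3 to 7 with a MEF-1 line left out, fewest without line 1. No counts were at hand, so a count model and the depth behind each value could not be tried, and values near the level without reads cannot separate few reads from none beyond 0.02.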
